A study of Homo sapiens with 8 samples.

Results

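The comparison described here sets a human lymphoblastoid cell line 7 days post treatment with hexavalent chromium against the same line at the end of a 24 h exposure. The members were chosen by the treatment label alone, which gave 4 of the 8 libraries of the series, 2 from each group, and their whole gene count tables were used. A lymphoblastoid line is a culture of B cells that Epstein-Barr virus has made to grow without limit. Cells of the 24 h group had been in 5 µM hexavalent chromium (Cr6) for 24 h, and cells of the 7 day group had received the same exposure and were then kept in culture. Day 7 is labelled as post treatment, but the series text reckons its time points from the onset of exposure, so the starting point of the count is not certain. The 2 remaining groups, used for reference levels, were controls taken before exposure and cells 3 days post treatment, with 2 libraries each. Every group comes from 1 cell line, and unexposed cells kept in culture for the same time were not analysed here. A difference that follows the exposure and a drift of the culture over the week cannot be told apart. The labels call the replicates biological without saying how separate the cultures were, so p-values measure the spread between these libraries.

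Hexavalent chromium enters cells as chromate through anion transporters and is reduced inside them, which leaves trivalent chromium bound to DNA and protein and generates reactive oxygen species. Lymphoblastoid lines depend on the viral protein LMP1, which acts like a constantly active CD40 receptor and drives NF-kB, a family of transcription factors that switches on chemokine, survival and costimulation genes. Passage from the cell cycle's resting state into division is marked by genes of DNA synthesis, read by E2F factors, and genes of mitosis, many of which carry the short CHR element near their start. Genes of glycolysis and oxygen response are read by HIF.

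The promoters below belong to genes that the results turn on, and show letters that match motifs of the factors just named. They were picked from list members with a match and with 24 h and 7 day libraries that did not overlap. A match in each was thus fixed by the choice. All run 5′ to 3′ from 250 bases before to 50 bases after the annotated start, are taken from RefSeq on GRCh38.p14, and carry in capitals the letters that matched on either strand. The first pair was searched for a form of the NF-kB site, the kappaB motif written GGGA and CC with any 4 bases between; these genes code for a chemokine and for an NF-kB subunit, and both stood lower at 7 days in both libraries.
CCL22, chr16:57358533-57358832, plus strand: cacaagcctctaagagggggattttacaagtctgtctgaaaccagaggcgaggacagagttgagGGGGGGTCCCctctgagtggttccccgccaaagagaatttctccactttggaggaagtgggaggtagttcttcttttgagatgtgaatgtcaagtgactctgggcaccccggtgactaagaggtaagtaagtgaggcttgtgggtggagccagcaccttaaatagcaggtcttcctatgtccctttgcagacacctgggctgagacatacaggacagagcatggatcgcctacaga
NFKB2, chr10:102393860-102394159, plus strand: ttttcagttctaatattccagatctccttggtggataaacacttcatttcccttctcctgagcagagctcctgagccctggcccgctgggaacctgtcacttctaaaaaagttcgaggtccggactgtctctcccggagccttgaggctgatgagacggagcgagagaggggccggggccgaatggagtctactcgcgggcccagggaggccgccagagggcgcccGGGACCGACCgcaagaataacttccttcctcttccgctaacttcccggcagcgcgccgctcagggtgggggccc
The next promoter was searched for ACGTG or GCGTG, the core read by HIF, and belongs to adrenomedullin, which stood higher at 7 days.
ADM, chr11:10304823-10305122, plus strand: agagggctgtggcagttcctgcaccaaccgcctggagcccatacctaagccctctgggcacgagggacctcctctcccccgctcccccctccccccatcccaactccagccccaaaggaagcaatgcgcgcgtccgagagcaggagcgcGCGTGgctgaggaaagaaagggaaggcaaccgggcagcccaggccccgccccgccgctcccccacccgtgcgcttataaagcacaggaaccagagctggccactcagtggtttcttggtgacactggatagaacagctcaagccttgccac
MKI67 and NUSAP1 are mitosis genes that were searched for the CHR letters TTTGAA or TTCGAA, and MCM7, a subunit of the helicase that opens DNA for copying, was searched for TTTNGCGC, a form of the E2F site. All 3 stood higher at 7 days in both libraries.
MKI67, chr10:128126374-128126673, minus strand: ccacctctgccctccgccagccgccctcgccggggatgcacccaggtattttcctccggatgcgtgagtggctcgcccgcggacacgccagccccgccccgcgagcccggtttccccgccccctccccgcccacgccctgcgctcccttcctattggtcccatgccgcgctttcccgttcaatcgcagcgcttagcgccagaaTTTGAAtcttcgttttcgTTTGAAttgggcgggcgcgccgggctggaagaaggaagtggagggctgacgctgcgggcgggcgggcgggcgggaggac
NUSAP1, chr15:41332631-41332930, plus strand: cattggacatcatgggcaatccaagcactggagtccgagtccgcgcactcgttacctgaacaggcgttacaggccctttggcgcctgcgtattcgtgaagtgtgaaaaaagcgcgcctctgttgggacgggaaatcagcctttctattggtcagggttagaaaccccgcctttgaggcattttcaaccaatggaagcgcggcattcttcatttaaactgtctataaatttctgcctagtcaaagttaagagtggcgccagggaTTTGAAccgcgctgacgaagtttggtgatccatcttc
MCM7, chr7:100101348-100101647, minus strand: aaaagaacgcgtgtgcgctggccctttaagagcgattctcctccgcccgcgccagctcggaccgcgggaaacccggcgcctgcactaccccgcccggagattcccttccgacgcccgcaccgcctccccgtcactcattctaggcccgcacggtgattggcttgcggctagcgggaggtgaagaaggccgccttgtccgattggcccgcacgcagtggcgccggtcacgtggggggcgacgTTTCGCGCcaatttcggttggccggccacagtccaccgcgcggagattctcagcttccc
Promoters could be matched by symbol for 9777 of the 12536 genes tested. The CHR letters were found in 31 of the 41 mitosis genes with a promoter (75.6%), and in 11.8% of all promoters. TTTNGCGC was found in 16 of 43 DNA replication genes (37.2%) against 3.12% of all promoters. The kappaB motif occurred in 11 of 26 NF-kB target genes (42.3%) against 30.0%, and the HIF core in 27 of 37 hypoxia and glycolysis genes (73.0%) against 63.5%. The motifs do not overlap each other in letters. These matches describe the gene lists, which were made by function, and a match is neither a shown binding site nor a cause of a change.

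Total gene counts were 9587004 and 10434228 at 24 h and 9940751 and 9920202 at 7 days. Replicate 1 at 7 days stood apart from the 3 libraries it is compared with. Chi-square per degree of freedom between count tables was 75.0 between the 7 day libraries and 27.0 between the 24 h libraries, whereas replicate 2 of each group differed by 17.2. In that library 36.5% of reads were counted under no feature, against 45.3% to 51.5% in the other 3, and the 20 highest genes took 12.5% of gene counts, against 8.88% to 9.65%. Genes with short transcripts were higher in it: of 4 equal classes by transcript length, the class with the shortest transcripts had a median of 0.26 on the log2 scale relative to the 24 h mean, and the class with the longest had a median of -0.26. In replicate 2 at 7 days the same medians were 0.04 and -0.02. Replicate 1 of the 3 day group carried the same features, with 39.4% of reads under no feature and 12.5% of counts in the 20 highest genes. For the main lists described below and those whose 7 day libraries lay on opposite sides of 0, medians are therefore also given in each 7 day library. Defining B cell genes were present, with 31 of 36 at 10 CPM or more in at least 1 of the 24 h and 7 day libraries. Marker counts and sums use CPM by total gene count alone, and CPM elsewhere are also scaled with TMM factors. None of 16 T and NK cell markers and none of 10 erythroid markers reached 10 CPM, and 7 of each, CD3D, CD8A and the globin genes HBA1 and HBB among them, were at 0 in all 4 libraries.

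No gene was called in either direction by edgeR's quasi-likelihood test at a Benjamini-Hochberg adjusted p under 0.05 over 12536 genes, so the share called was 0% for both directions. At an unadjusted p under 0.05, 277 genes stood higher at 7 days (2.21%) and 470 lower (3.75%). Both 7 day libraries lay above both 24 h libraries for 2240 genes (17.9%) and below both for 2398 (19.1%), and these shares are the background for every count of separated genes below. The unadjusted counts moved with single libraries. They were 87 higher and 259 lower without replicate 1 at 7 days, 1005 and 1033 without replicate 2 at 7 days, and 71 and 179 without replicate 1 at 24 h. Without replicate 1 or 2 of the controls 161 or 162 genes were higher, and without replicate 1 or 2 at 3 days 529 or 533. DESeq2, run as an alternative on the same counts, called 3 genes higher (0.023% of 13021) and 19 lower (0.146%) at an adjusted p under 0.05, and limma-voom called 0 of either kind. The smallest edgeR adjusted p was 0.357, for ITGA1. For comparison, 24 h against control gave 0 calls (0%) and 22 genes at an unadjusted p under 0.05 (0.175%). Between 7 and 3 days there were also 0 calls (0%), with 31 genes at an unadjusted p under 0.05 (0.247%).

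**Figure D1:**
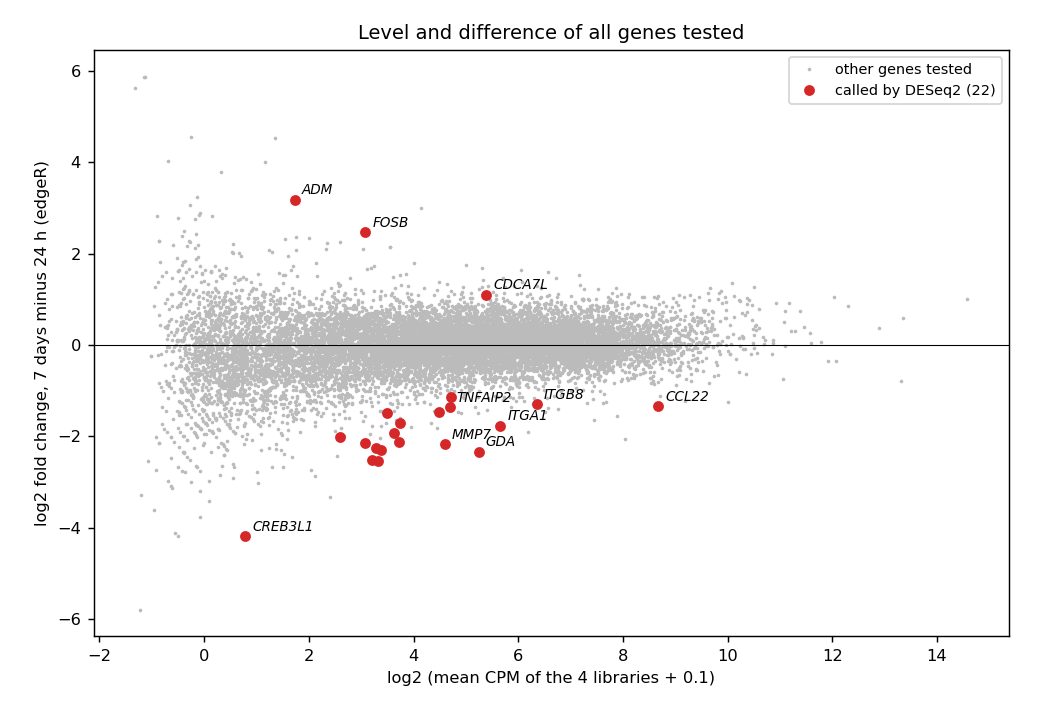
Each point is a gene, placed by its mean level over the 24 h and 7 day libraries (log2 of CPM plus 0.1, horizontal) and its log2 fold change at 7 days relative to 24 h from edgeR (vertical). Red points are the 22 genes that DESeq2 called, of which 19 lie below 0 and 3 above; edgeR called none.

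The gene with the smallest p was ITGA1, which codes for an integrin subunit that pairs with ITGB1 to bind collagen. It stood at 83.9 and 71.5 CPM at 24 h and at 23.3 and 22.2 CPM at 7 days. The gap between the groups was wider than the spread within either, and the log2 fold change was -1.77 ± 0.21 (SE; edgeR adjusted p = 0.357; DESeq2 adjusted p = 6.32e-07). The 24 h mean was 3.41 times the 7 day mean. Control libraries were at 70.4 and 77.3 CPM and 3 day libraries at 22.6 and 20.7 CPM. ITGB8, the integrin subunit that helps release active TGF-beta, stood at 92.6 and 139 CPM at 24 h and at 47.3 and 46.9 CPM at 7 days. Its groups did not overlap either (log2 fold change -1.30 ± 0.25 SE; edgeR adjusted p = 0.613; DESeq2 adjusted p = 0.0195). VCAM1, an adhesion molecule for integrin-bearing leukocytes, went the same way in values, at 5.13 and 7.72 CPM against 2.10 and 1.91 CPM. In the whole list of 30 tested adhesion and integrin genes 7 were lower and 4 higher in both libraries (23.3% and 13.3%), close to the background, and the list median was -0.19, at -0.16 and -0.20 in the 7 day libraries. SELPLG, the ligand of P-selectin, was among the higher ones, at 5.53 and 5.11 CPM against 8.72 and 10.3 CPM.

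CCL22, a chemokine that activated B cells and dendritic cells use to draw CCR4-bearing T cells, was the most abundant of the lower genes named here by p. Its level was 552 and 617 CPM at 24 h and 257 and 203 CPM at 7 days. Controls stood at 725 and 534 CPM and 3 day libraries at 254 and 195 CPM, so both later groups lay below both earlier groups. The log2 fold change from 24 h to 7 days was -1.35 ± 0.26 (SE; edgeR adjusted p = 0.613; DESeq2 adjusted p = 0.0127). TNFAIP2, a gene induced by tumour necrosis factor through NF-kB, stood at 41.9 and 32.1 CPM against 14.6 and 14.1 CPM. TRAF1, an adaptor of TNF receptors and LMP1, stood at 182 and 181 CPM against 88.0 and 101 CPM. NFKB2, the subunit of the noncanonical NF-kB pathway, gave 155 and 128 CPM against 74.9 and 76.0 CPM. In each of these 3 genes the higher 7 day library was under the lower 24 h library, and the log2 fold changes were -1.37, -0.94 and -0.91.

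Among 33 tested NF-kB target genes, 30 had a negative log2 fold change and 22 were lower in both 7 day libraries (66.7%), while none was higher in both. The list median was -0.73, against 0.00 over all genes tested, and 16 members had an unadjusted p under 0.05. It stood at -0.53 in replicate 1 at 7 days and at -0.82 in replicate 2, whereas the 24 h libraries lay at 0.18 and -0.18. Leaving out replicate 1 at 7 days gave a median of -0.84 with 32 of 33 members lower. Without replicate 1 at 24 h the median was -0.48, and 8 members had an unadjusted p under 0.05. Survival genes of the pathway were part of this. BIRC3, an inhibitor of cell death downstream of TNF receptors, stood at 987 and 643 CPM at 24 h against 327 and 370 CPM at 7 days. BCL2A1, a short-lived BCL2 relative, stood at 186 and 120 CPM against 61.6 and 80.9 CPM. Each gene had non-overlapping groups, yet the 24 h libraries differed from each other more than the 7 day ones did. The list of 33 tested BCL2 family and apoptosis genes did not lean this way. Its median was 0.04, with 10 members higher and 9 lower in both 7 day libraries (30.3% and 27.3%). No NF-kB target passed edgeR's adjusted threshold.

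B cell activation and costimulation genes, which the NF-kB list partly shares, were lower in both 7 day libraries for 12 of 25 tested members (48%) and higher in both for none, with a median of -0.47. CD80, which gives T cells the costimulatory signal through CD28, stood at 256 and 199 CPM at 24 h and at 122 and 106 CPM at 7 days (log2 fold change -1.002 ± 0.22 SE; edgeR adjusted p = 0.613). CD40, the receptor that LMP1 imitates, stood at 64.4 and 36.9 CPM against 20.9 and 29.4 CPM. The groups of CD40 did not overlap, but its 24 h libraries differed by more than the gap between the groups. IL2RA, a chain of the interleukin-2 receptor, stood at 25.03 and 21.6 CPM against 14.5 and 11.9 CPM, and TNFRSF9, the costimulatory receptor 4-1BB, at 10.3 and 11.8 CPM against 4.75 and 4.52 CPM. CD58, the ligand of CD2 on T cells, stood at 152 and 148 CPM against 54.7 and 93.6 CPM. The median of the list in the 7 day libraries was -0.51 and -0.57, and over the whole comparison it was -0.26 without replicate 1 at 24 h.

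Chemokine, cytokine and receptor genes were lower in both 7 day libraries for 14 of 38 tested members (36.8%) and higher in both for 1 (2.63%), with a median of -0.35, at -0.44 and -0.41 in the 7 day libraries. LTA, the cytokine lymphotoxin alpha, stood at 455 and 252 CPM at 24 h and at 96.97 and 145 CPM at 7 days. TNFSF13B, which codes for the B cell survival factor BAFF, stood at 31.4 and 26.1 CPM against 13.6 and 13.3 CPM. The 7 day levels of LTA were under the 24 h levels in both libraries, and its log2 fold change of -1.54 ± 0.40 (SE) had an edgeR adjusted p of 0.736 and a DESeq2 adjusted p of 0.0669. Of the 33 NF-kB targets and these 38 genes, several are the same, CCL22 and LTA included, so the lists are not separate evidence.

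Interferon-stimulated genes, which cells use against viruses and which carry a steady signal in lines that hold Epstein-Barr virus, were lower in both 7 day libraries for 25 of 47 members (53.2%) and higher in both for 2 (4.26%), with a median of -0.50. GBP4 and GBP1, guanylate-binding proteins induced by interferon gamma, gave 118 and 99.6 CPM against 56.2 and 41.0 CPM, and 143 and 158 CPM against 103 and 89.7 CPM. IFI6, a mitochondrial protein that protects infected cells, gave 198 and 162 CPM against 120 and 110 CPM. The list median was -0.58 in replicate 1 and -0.32 in replicate 2, and the 24 h libraries lay at 0.23 and -0.23. It was -0.28 without replicate 1 at 24 h and -0.34 without replicate 1 at 7 days. CIITA, the switch for MHC class II genes, stood at 79.6 and 94.1 CPM against 25.6 and 48.1 CPM, although the 20 tested genes of class II presentation had a median of -0.16 and 6 of them (30%) were lower in both libraries. That class II median stood at 0.03 in replicate 1 and -0.26 in replicate 2 at 7 days, and it turned to 0.04 without replicate 2.

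**Figure D2:**
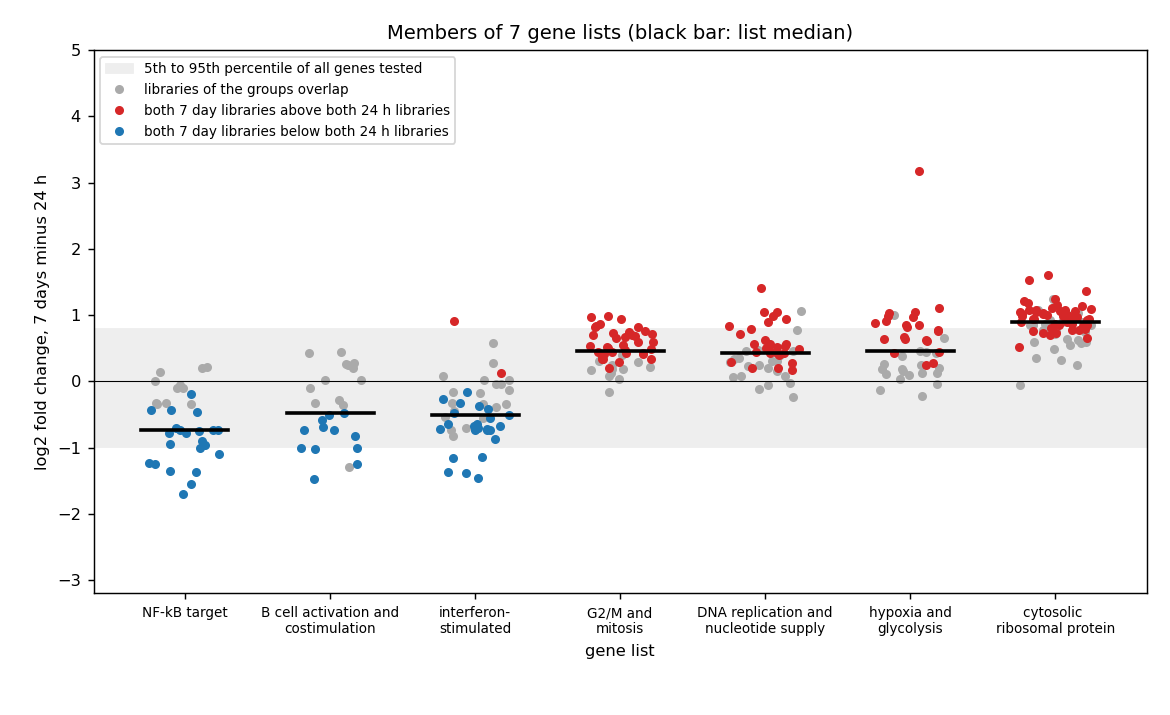
Points are the tested members of 7 gene lists, with the log2 fold change at 7 days relative to 24 h on the vertical axis and the list on the horizontal axis; black bars are list medians and the grey band runs from the 5th to the 95th percentile of all genes, -0.99 to 0.80. Blue points fill the NF-kB list (22 of 33) and red points the mitosis list (36 of 48).

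Other genes with small p values belong to none of these lists. CYP1B1, a cytochrome P450 under the aryl hydrocarbon receptor (AhR), stood at 19.5 and 23.0 CPM at 24 h and at 6.18 and 3.52 CPM at 7 days, a log2 fold change of -2.13 ± 0.38 (SE; edgeR adjusted p = 0.613; DESeq2 adjusted p = 0.00497). Both AHR itself and its repressor AHRR were lower too in both libraries, at 220 and 177 CPM against 130 and 110 CPM for AHR and 46.6 and 35.6 CPM against 17.4 and 26.0 CPM for AHRR. NQO1, which the AhR and NRF2 both drive, was far higher in replicate 1 than in replicate 2, at 11.96 and 12.6 CPM against 49.6 and 14.7 CPM. The 7 tested AhR genes thus held 3 that were lower and 1 that was higher in both libraries (42.9% and 14.3%), with medians of 0.05 in replicate 1 and -0.64 in replicate 2 at 7 days.

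CREB3L1, a membrane-bound transcription factor of the secretory pathway, was close to absent at 7 days. It had 32 and 32 counts at 24 h and 2 and 1 counts at 7 days, which is 3.22 and 2.98 CPM against 0.221 and 0.101 CPM. Control libraries held 36 and 37 counts and 3 day libraries 4 and 2, so the 3 day and 7 day libraries were alike in this (DESeq2 adjusted p = 0.0393; edgeR adjusted p = 0.613 for 7 days against 24 h). RASSF4, of the Ras association family that links to the Hippo kinases, stood at 35.9 and 36.6 CPM against 17.2 and 15.6 CPM, with close replicates on both sides. Its list of 19 RASSF and Hippo kinase genes had 6 lower and 3 higher in both libraries and a median of -0.08, with RASSF4 its lowest member. ALPK2, an atypical kinase, gave 15.5 and 17.3 CPM against 6.30 and 5.33 CPM. LHFP gave 11.2 and 7.997 CPM against 2.32 and 2.41 CPM, and WDR17, named for its WD40 repeats, 19.4 and 12.6 CPM against 3.09 and 3.62 CPM. PPIC, a cyclophilin that helps proteins fold, gave 3.22 and 3.44 CPM against 0.442 and 0.503 CPM, and PRRX1, a homeobox factor of mesenchymal cells, 4.82 and 4.65 CPM against 0.552 and 0.905 CPM.

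The 12 lower genes named by smallest p were ITGA1, CREB3L1, PPIC, CYP1B1, TNFAIP2, ALPK2, LHFP, ITGB8, RASSF4, CCL22, WDR17 and PRRX1. DESeq2 called 10 of them, all but PPIC and PRRX1, and edgeR called none (adjusted p from 0.357 to 0.613). In all 12, both 7 day libraries also lay below both control libraries, and both 3 day libraries lay below both 24 h libraries; these positions share libraries with the choice of the genes. DESeq2 called 9 more genes lower, chosen here after their values were seen. MMP7, a secreted protease, stood at 45.6 and 33.2 CPM against 11.2 and 6.33 CPM. NTRK2, the receptor of brain-derived neurotrophic factor, stood at 21.8 and 18.8 CPM against 8.06 and 4.42 CPM, and TCF7, a transcription factor of the Wnt pathway known from T cells, at 18.6 and 8.74 CPM against 3.203 and 2.91 CPM. The other 6 were GDA (guanine deaminase), MS4A7, TC2N, C1orf173, LOC256021 and LINC00158. For GDA the 24 h libraries themselves were at 93.7 and 32.5 CPM, against 10.7 and 14.2 CPM at 7 days.

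**Figure D3:**
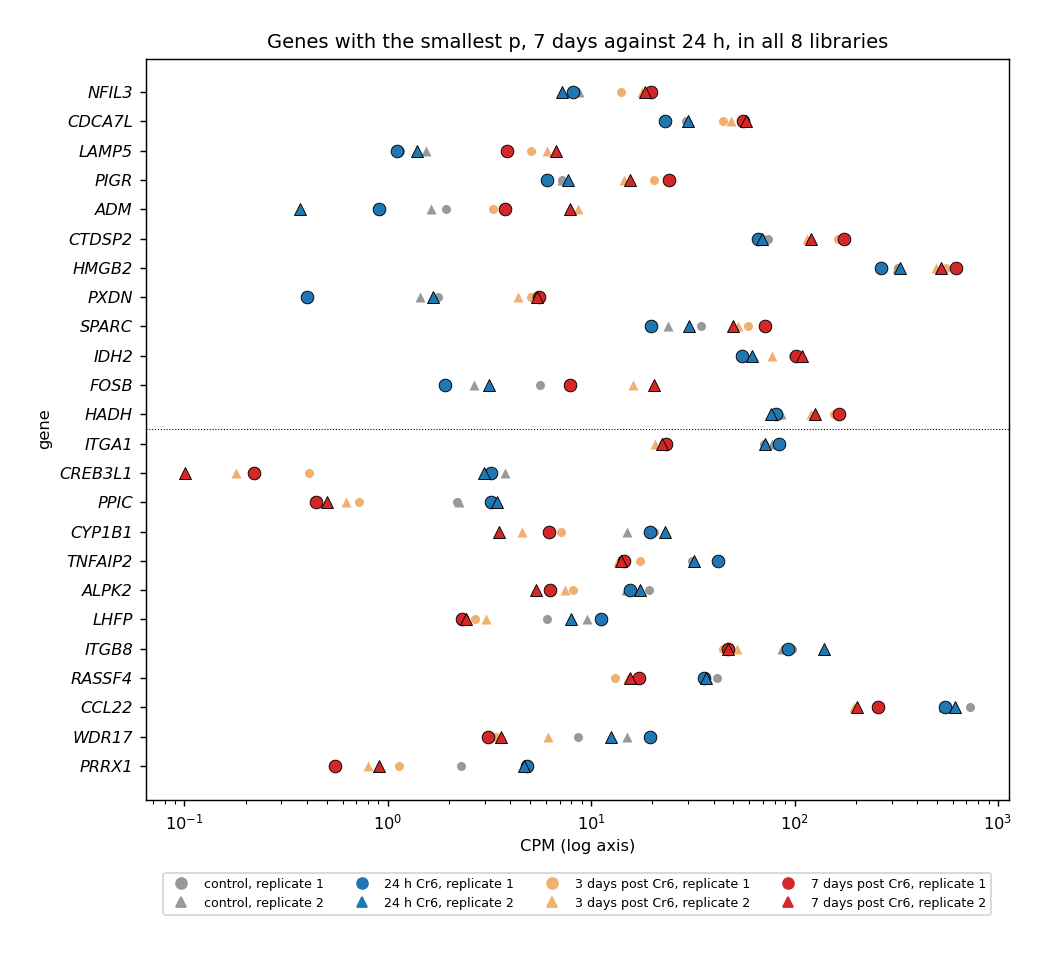
CPM on a log axis for the 12 higher (top) and 12 lower (bottom) genes with the smallest p, each library a point, coloured by group, with circles for replicate 1 and triangles for replicate 2. Red (7 days) and orange (3 days) points lie to one side of the blue (24 h) and grey (control) points in each row; the 7 day points of ITGA1, at 23.3 and 22.2 CPM, almost coincide.

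The higher genes were led by NFIL3, a basic leucine zipper repressor of immune and clock genes. NFIL3 stood at 8.14 and 7.16 CPM at 24 h and at 19.8 and 18.5 CPM at 7 days. The groups were well separated, with a log2 fold change of 1.32 ± 0.26 (SE; edgeR adjusted p = 0.613; DESeq2 adjusted p = 0.0541). CDCA7L, a MYC partner, stood at 23.0 and 29.9 CPM against 55.8 and 57.5 CPM (log2 fold change 1.10 ± 0.22 SE; edgeR adjusted p = 0.613; DESeq2 adjusted p = 0.0412). HMGB2, a chromatin protein abundant in dividing cells, stood at 265 and 330 CPM against 620 and 525 CPM. Its log2 fold change was 0.94 ± 0.22 (SE). IDH2 and HADH are mitochondrial enzymes, of the citric acid cycle and of fatty acid oxidation. IDH2 was at 54.9 and 61.7 CPM against 101 and 109 CPM, and HADH at 81.2 and 76.6 CPM against 166 and 127 CPM.

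Several of the higher genes code for secreted or surface proteins. PIGR, the receptor that carries polymeric immunoglobulin across epithelia, stood at 6.03 and 7.72 CPM at 24 h and at 24.1 and 15.5 CPM at 7 days. SPARC, a matrix glycoprotein, stood at 19.6 and 30.1 CPM against 71.6 and 50.1 CPM, and PXDN, a peroxidase that crosslinks collagen IV, at 0.402 and 1.67 CPM against 5.52 and 5.43 CPM. LAMP5, a lysosome-associated membrane protein, stood at 1.11 and 1.39 CPM against 3.87 and 6.73 CPM. All 4 were higher in both 7 day libraries, with log2 fold changes of 1.52, 1.29, 2.37 and 2.07. CTDSP2, a phosphatase of the RNA polymerase II tail, was at 66.3 and 69.5 CPM against 175 and 121 CPM. UCP3, an uncoupling protein of mitochondria, stood at 0.704 and 0.930 CPM against 2.32 and 2.31 CPM, and with ADM was among the 2 genes under 1 CPM in both 24 h libraries and at 2 CPM or more in both 7 day libraries.

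ADM and FOSB had the largest log2 fold changes of the 12 higher genes named by p. ADM, the vasodilator peptide adrenomedullin and a HIF target, stood at 0.905 and 0.372 CPM at 24 h (9 and 4 counts) and at 3.75 and 7.84 CPM at 7 days (34 and 78 counts). Its log2 fold change was 3.17 ± 0.69 (SE; edgeR adjusted p = 0.639; DESeq2 adjusted p = 0.0280). FOSB, an immediate early gene of the AP-1 family, stood at 1.91 and 3.16 CPM against 7.84 and 20.3 CPM (log2 fold change 2.46 ± 0.63 SE; edgeR adjusted p = 0.736; DESeq2 adjusted p = 0.0412). For both genes replicate 2 at 7 days was above replicate 1, and the lower 7 day library still lay above both 24 h libraries. FOS was alike in values, at 2.41 and 6.14 CPM against 12.9 and 25.2 CPM. Among the 29 tested immediate early genes the median was nevertheless -0.14, with 3 higher and 4 lower in both libraries, and it was 0.15 without replicate 1 at 24 h. The 12 higher genes named by smallest p were NFIL3, CDCA7L, LAMP5, PIGR, ADM, CTDSP2, HMGB2, PXDN, SPARC, IDH2, FOSB and HADH. DESeq2 called 3 of these, ADM, CDCA7L and FOSB, and edgeR adjusted p ran from 0.613 to 0.736.

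Genes of mitosis stood higher in both 7 day libraries by similar amounts. Of 48 members, 47 had a positive log2 fold change and 36 were higher in both 7 day libraries (75%), none lower in both, and 16 had an unadjusted p under 0.05. The median was 0.46, at 0.45 in replicate 1 and 0.59 in replicate 2, with the 24 h libraries at -0.13 and 0.13. Without replicate 1 at 7 days the median was 0.58 and 48 of 48 were higher, 5 of them at an unadjusted p under 0.05. That last count was 1 without replicate 1 at 24 h, where the median was 0.37. MKI67, the proliferation antigen Ki-67, stood at 302 and 402 CPM at 24 h and at 660 and 594 CPM at 7 days. NUSAP1, a spindle protein, gave 118 and 139 CPM against 225 and 193 CPM. CCNB2, a cyclin of entry into mitosis, gave 55.5 and 85.5 CPM against 128 and 120 CPM, and NEK2, a kinase of the centrosome, 40.3 and 49.0 CPM against 77.6 and 68.7 CPM. These are shares of all counts in bulk cultures, in which more cells in division and more RNA per dividing cell cannot be told apart. Controls of MKI67 stood at 410 and 422 CPM, above the 24 h libraries and below both 7 day libraries.

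DNA replication and nucleotide supply genes had 29 of 51 members higher in both 7 day libraries (56.9%) and none lower in both, with a median of 0.43. The median was 0.51 and 0.37 in the 7 day libraries, and 0.33 without replicate 1 at 7 days. RRM1, the large subunit of ribonucleotide reductase, stood at 158 and 274 CPM at 24 h and at 547 and 345 CPM at 7 days. TK1 and TYMS, enzymes that make thymidine nucleotides, gave 15.2 and 24.9 CPM against 44.8 and 37.7 CPM, and 125 and 174 CPM against 373 and 200 CPM. MCM7 gave 162 and 236 CPM against 316 and 274 CPM. Replicate 2 at 24 h was the nearer to the 7 day libraries in each, and across the list the 24 h libraries lay at -0.26 and 0.26. Leaving out replicate 1 at 24 h brought the list median down to 0.16, and leaving out replicate 2 at 24 h brought it to 0.70. Histone genes of the S phase may have been measured less well, since their transcripts lack the poly-A tail by which these libraries were selected. This was not tested. Of 32 listed histone genes 16 were tested, 6 of them higher and 2 lower in both libraries.

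Hypoxia and glycolysis genes were higher in both 7 day libraries for 22 of 42 members (52.4%) and lower in both for none, with a median of 0.46 and 12 members at an unadjusted p under 0.05. LDHA, which turns pyruvate into lactate, stood at 1641 and 1567 CPM at 24 h and at 3403 and 2626 CPM at 7 days, with a log2 fold change of 0.91 ± 0.26 (SE; edgeR adjusted p = 0.736). GAPDH stood at 2801 and 2638 CPM against 7458 and 3837 CPM. Although both were higher in both libraries, the 7 day libraries of GAPDH differed from each other by more than replicate 2 differed from 24 h. DDIT4, an inhibitor of mTORC1, gave 127 and 75.2 CPM against 227 and 174 CPM. BHLHE40, a repressor of clock genes, gave 67.0 and 61.5 CPM against 102 and 94.8 CPM, and BNIP3, which drives removal of mitochondria, 171 and 96.2 CPM against 229 and 227 CPM. The 7 day libraries had list medians of 0.42 and 0.52, and the 24 h libraries 0.22 and -0.22. The value moved to 0.86 without replicate 1 at 24 h and to 0.21 without replicate 2 at 24 h. The 12 members at an unadjusted p under 0.05 became 2 without replicate 2 at 24 h, and 2 without replicate 1 at 7 days.

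**Figure D4:**
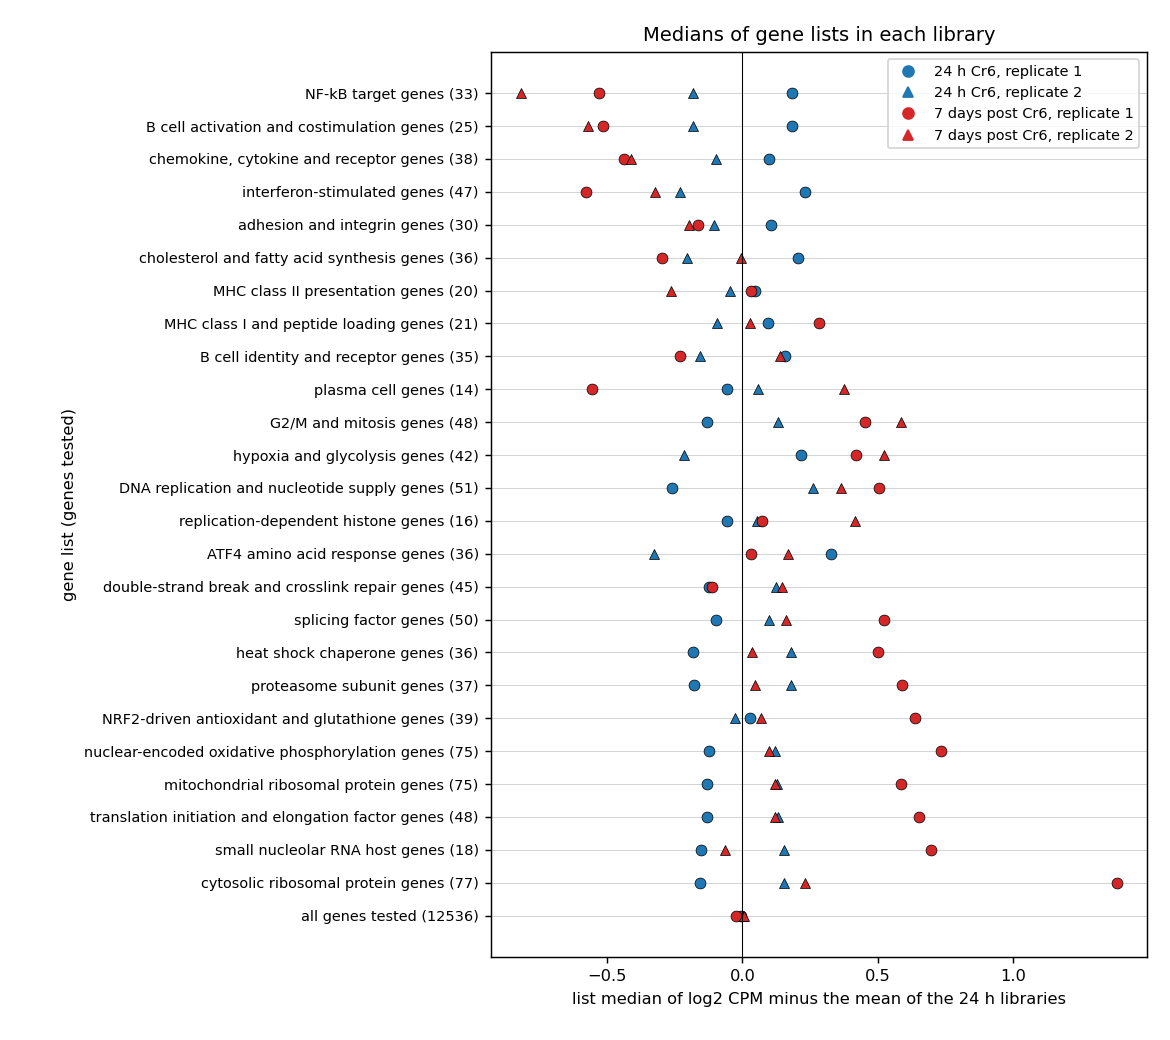
Each row is a gene list with the number of its tested genes, and the horizontal axis is the list median of log2 CPM relative to the mean of the 24 h libraries, for the 24 h (blue) and 7 day (red) libraries, circles for replicate 1 and triangles for replicate 2. The NF-kB, activation and mitosis lists have both red symbols on one side; for ribosomal protein genes replicate 1 lies at 1.38 and replicate 2 at 0.23.

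The genes that make proteins were also higher at 7 days, but unequally in the 2 libraries. Among 77 tested cytosolic ribosomal protein genes, 76 had a positive log2 fold change and 49 were higher in both 7 day libraries (63.6%), with a median of 0.90. That median was 1.38 in replicate 1, where 76 of 77 lay above both 24 h libraries (98.7%, against 40.7% of all genes tested). It was 0.23 in replicate 2, where 49 lay above both (63.6%, against 32.3% of all genes) and 6 below both (7.79%, against 32.7%). Without replicate 1 it was 0.21 and 67 of 77 members were higher. RPS18 stood at 527 and 625 CPM at 24 h and at 1719 and 895 CPM at 7 days, and RPL23 at 422 and 564 CPM against 1430 and 742 CPM. RPL8, of the large subunit, had the smallest p of the list, at 69.5 and 77.5 CPM against 281 and 143 CPM. EEF1A1, which brings transfer RNAs to the ribosome, had the largest difference in CPM of any separated gene, at 13788 and 18708 CPM against 45107 and 20109 CPM. For EEF1A1 replicate 2 exceeded the higher 24 h library by less than the 24 h libraries differed. Ribosomal protein genes, EEF1A1, ACTG1, GAPDH and HMGB2 have near-identical copies elsewhere in the genome, so their counts are uncertain in size.

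The same imbalance ran through other lists of abundant housekeeping genes. For nuclear-encoded oxidative phosphorylation genes, 28 of 75 were higher in both libraries (37.3%), and the median was 0.43. It was 0.73 in replicate 1 and 0.10 in replicate 2, below the 0.12 of replicate 2 at 24 h. Mitochondrial ribosomal protein genes had medians of 0.59 and 0.12, translation factors 0.65 and 0.12, proteasome subunits 0.59 and 0.05, and splicing factors 0.52 and 0.16. In these lists replicate 2 at 7 days lay under the larger 24 h median, except for splicing factors, at 0.16 against 0.10. In that library 56% of splicing factors lay above both 24 h libraries and 14% below both, against 32.3% and 32.7% of all genes. The shares were 49.3% and 8% for mitochondrial ribosomal proteins and 43.8% and 22.9% for translation factors. They were 38.7% and 16% for oxidative phosphorylation and 32.4% and 16.2% for proteasome subunits. SDHA, a subunit of respiratory complex II, stood at 72.9 and 81.0 CPM against 155 and 110 CPM, and PSMB4, of the proteasome core, at 84.1 and 131 CPM against 259 and 171 CPM. With the trend in transcript length and GC content removed, the median difference in log2 CPM went from 0.81 to 0.71 for ribosomal proteins and from 0.39 to 0.33 for oxidative phosphorylation.

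Some genes lay on opposite sides of both 24 h libraries in the 7 day replicates, which held for 19.9% of all genes tested. CDKN1A, the cell cycle inhibitor p21, was looked at after its values were seen. It stood at 80.2 and 103 CPM at 24 h and at 366 and 63.6 CPM at 7 days, so replicate 1 lay above both 24 h libraries and replicate 2 below both.

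**Figure D5:**
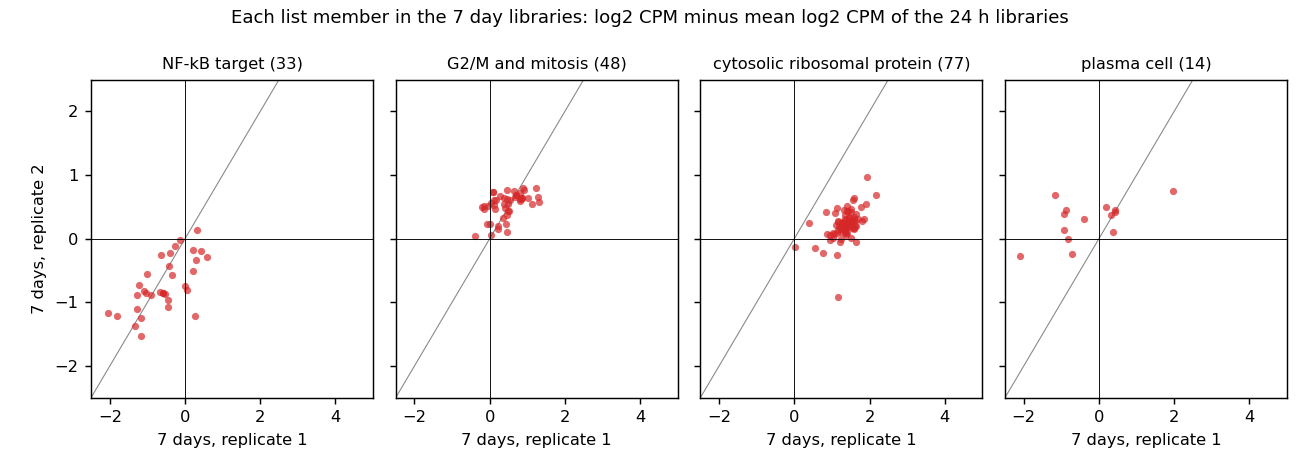
Each point is a gene, with its log2 CPM relative to the mean of the 24 h libraries in replicate 1 (horizontal) and replicate 2 (vertical) of the 7 day group; the diagonal marks equal values. NF-kB targets lie mostly below and left of 0 and mitosis genes above and right of it, whereas ribosomal protein genes stretch to the right, and plasma cell genes have medians of -0.56 in replicate 1 and 0.38 in replicate 2.

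Oxidant defence and metal handling genes, which are known to respond to metals and oxidants, gave mixed values. NRF2-driven antioxidant and glutathione genes had 16 of 39 members higher in both libraries (41%) and 4 lower (10.3%), with medians of 0.64 in replicate 1 and 0.07 in replicate 2. GPX1, a glutathione peroxidase, stood at 26.6 and 37.2 CPM at 24 h and at 144 and 55.9 CPM at 7 days, and MGST3, a microsomal glutathione transferase, at 16.1 and 13.0 CPM against 22.6 and 21.4 CPM. MGST3 was nearly equal in the 7 day libraries, unlike GPX1. Peroxiredoxin, superoxide dismutase and catalase genes were higher in both for 12 of 23 (52.2%) and lower in both for none. Their median was 0.52 in replicate 1 and 0.19 in replicate 2 at 7 days, with the 24 h libraries at -0.10 and 0.10. PRDX2, which removes hydrogen peroxide, stood at 7.44 and 7.16 CPM against 12.04 and 12.4 CPM. The median was 0.03 for metallothionein and metal response genes, of which 2 of 16 were higher and 4 lower in both libraries. It stood at 0.32 in replicate 1 and -0.15 in replicate 2 at 7 days, and leaving out 1 library of the comparison gave from -0.19, without replicate 1 at 24 h, to 0.32, without replicate 2 at 7 days. Among 12 tested genes listed under sulfate transport, 1 was higher and 3 were lower in both. The list is wider than the transporters that take up chromate. SUMF2, the 1 that was higher, is a sulfatase-modifying factor and no transporter, at 45.7 and 51.5 CPM against 71.1 and 63.0 CPM. SLC26A11 gave 3.32 and 2.14 CPM against 1.10 and 0.804 CPM. Genes of double-strand break and crosslink repair were near the background, with a median of 0.02, 11 of 45 higher (24.4%) and 6 lower (13.3%). That median was -0.11 in replicate 1 and 0.15 in replicate 2 at 7 days.

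The median of B cell identity and receptor genes differed in sign between the 7 day libraries, at -0.23 in replicate 1 and 0.14 in replicate 2. In replicate 1, 51.4% of the 35 lay below both 24 h libraries, against 42.6% of all genes tested. In replicate 2, 48.6% lay above both, against 32.3% of all genes. The 7 day libraries lay on opposite sides of both 24 h libraries for 14.3% of the list, against 19.9% of all genes. Of the 35, 8 were higher and 4 lower in both 7 day libraries (22.9% and 11.4%). The median over the comparison was -0.07, and it ran from -0.25 without replicate 2 at 24 h to 0.09 without replicate 1 at 7 days. CR2, the complement receptor that Epstein-Barr virus uses to enter B cells, stood at 251 and 291 CPM at 24 h and at 98.8 and 160 CPM at 7 days. FCRLA, an Fc receptor-like protein of B cells, stood at 45.2 and 49.5 CPM against 81.1 and 71.0 CPM. Plasma cell genes differed between the 7 day libraries, with medians of -0.56 and 0.38. SDC1, the plasma cell surface proteoglycan CD138, was higher in both nonetheless, at 5.73 and 6.88 CPM against 24.96 and 10.7 CPM. Markers of other cell types were scarce: 2 of 14 myeloid markers (VCAN and ITGAM) and 1 of 15 stromal and epithelial markers (FBN1) reached 10 CPM in at least 1 of the 4 libraries, and FCGR1A, S100A8, S100A9, MPO, ELANE and FCN1 of the first list and DCN, LUM and CDH5 of the second were at 0 in all 4 libraries. Their summed levels were lower at 7 days, at 57.2 and 76.9 CPM against 37.4 and 17.04 CPM for myeloid markers and 171 and 186 CPM against 70.9 and 125 CPM for stromal and epithelial markers. FBN1, which codes for the matrix protein fibrillin-1, made up most of the latter, at 159 and 173 CPM against 66.5 and 116 CPM on the same scale. PRRX1 and COL1A1, a collagen chain, were lower beside these, COL1A1 with TMM factors at 2.71 and 2.60 CPM against 0.442 and 0.905 CPM, and the part of other cells in these values was not tested.

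By change in CPM rather than by p, the lower genes were led by MALAT1 and NEAT1, long noncoding RNAs kept in the nucleus, and included ACTB and CCND2. MALAT1 stood at 15668 and 10124 CPM at 24 h and at 6119 and 8796 CPM at 7 days. NEAT1, the scaffold of paraspeckles, stood at 1645 and 1245 CPM against 269 and 947 CPM, with a log2 fold change of -1.25 ± 0.66 (SE; edgeR adjusted p = 0.736). CCND2, a cyclin of the G1 phase, stood at 1462 and 1729 CPM against 956 and 1099 CPM. The 7 day libraries of CCND2 were close to each other, while those of NEAT1 were not. ACTB, cytoplasmic beta actin, stood at 4553 and 4145 CPM against 2762 and 4036 CPM, and ACTG1, cytoplasmic gamma actin, at 6676 and 9888 CPM against 12055 and 12901 CPM. The 8 genes named for being under 1 CPM in both 7 day libraries and at 2 CPM or more in both 24 h libraries were PRRX1, PTGIR, TNFSF15, FAT2, HYAL4, PPIC, CREB3L1 and COL1A1. PTGIR, the prostacyclin receptor, stood at 4.22 and 3.999 CPM against 0.773 and 0.905 CPM, and TNFSF15, a TNF family cytokine, at 5.73 and 2.42 CPM against 0.663 and 0.603 CPM.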

How the data were processed

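RNA was sequenced in 8 libraries of a human lymphoblastoid line. The authors deposited 1 table for each library, with a raw read count beside each gene symbol. The submitters' processing notes name the tools DESeq2 1.8.1, R 3.2.3, Bowtie2, Trim Galore and SAMtools and the build GRCh37 (hg19). Which program counted the reads, with which strand setting and gene models, is not given in the sources used here, so a gene's counts may include reads of a gene that overlaps it on either strand. Each table holds 23710 symbols and 5 entries that name no gene, which took 42.6% to 57.5% of reads and were left out.

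From the counts, 12536 genes passed the filter of edgeR 4.0.16 (minimum count 10, minimum total 15). After TMM scaling, the quasi-likelihood test was fitted to the 8 libraries together, 1 coefficient for each group without covariates, and calls used a Benjamini-Hochberg adjusted p under 0.05 in R 4.3.3. The common biological coefficient of variation was 0.276. Estimated within each group, its median over genes was 0.167 in controls, 0.193 at 24 h, 0.332 at 3 days and 0.324 at 7 days. Values per gene are CPM with TMM factors; counts and sums of cell type markers use CPM by total gene count. List medians by library use log2 CPM with a prior count of 2. DESeq2 1.42.0, limma-voom (limma 3.58.1), other scalings and filters, a replicate block, a fit of the 4 libraries alone and leaving out each library were alternatives. The edgeR fit was tested on simulated counts with 50 genes changed at each size. It recovered 18% of 2-fold and 86% of 4-fold changes at an adjusted p under 0.05, with 9 false calls. The simulated spread followed the trend with level in all groups alike, so it does not carry the spread of single genes.

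Genes named are, in each direction, the 12 with the smallest p among genes with separated libraries, a mean of 2 CPM or more in the group that is higher, and a symbol that is no clone or locus identifier (LOC, LINC, C1orf and the like); the 5 with the largest change in CPM; genes that cross from under 1 to at least 2 CPM, up to 8; and up to 4 members of each list by p. Members and lists were chosen with earlier results of these data known. Symbols were matched to RefSeq (GRCh38.p14) for promoters, transcript length and GC content; no coordinates of the hg19 files were used. Some genes and 1 list that the rule would name are not reported here.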

Additional observations from a re-analysis of the deposited data

How the results depend on the processing

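No count of calls by edgeR moved from 0 under RLE or upper-quartile scaling, the stricter filter (at least 50 counts in 2 libraries), robust estimation, only the 4 libraries compared, or leaving out any 1 of the 8 libraries. Without a count filter edgeR called 4 genes higher and 21 lower, with 691 higher and 689 lower at an unadjusted p under 0.05. DESeq2 called 3 higher and 19 lower, and 16 of its 22 genes were also called without the filter. On the genes tested by edgeR, an alternative chosen after seeing the data, DESeq2 called 6 higher and 27 lower. Leaving out 1 library gave from 71 to 1005 genes higher and from 179 to 1033 lower at an unadjusted p under 0.05. The upper ends came without replicate 2 at 7 days, and the lower ends without replicate 1 at 24 h. Without replicate 1 at 7 days the counts were 87 and 259, and without replicate 1 or 2 of the control group 161 or 162 genes were higher. Without replicate 1 or 2 at 3 days these were 529 or 533. The causes were not tested.

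With the replicate number as a block, edgeR called 0 genes in each direction, and 303 were higher and 601 lower at an unadjusted p under 0.05. The numbers are not shown to pair the samples: replicate differences at 24 h and 7 days correlated at -0.308 across genes, which are not independent. With the 24 h numbers crossed, chosen after seeing the data, the block called 0 higher and 10 lower (1137 and 1262 at an unadjusted p under 0.05), and with only the 4 libraries compared 29 higher and 95 lower (680 and 930).

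For lists, the alternatives run were RLE and upper-quartile scaling, the stricter filter, DESeq2, the replicate block and its crossed form, each 24 h and 7 day library left out, and removal of a trend in transcript length and GC content. The 9 lists followed closely were chosen after their medians were seen: NF-kB targets, B cell activation, chemokines and cytokines, interferon-stimulated genes, hypoxia and glycolysis, mitosis, DNA replication, cytosolic ribosomal proteins and oxidative phosphorylation. The medians of these 9 kept their sign under each of those alternatives. The range over left-out libraries was -0.53 to -0.31 for chemokines and cytokines, lowest without replicate 2 at 7 days, and 0.21 to 0.86 for hypoxia and glycolysis. Upper-quartile scaling moved the median of all genes by -0.04 on the log2 scale. Depth limits the genes with few counts, such as CREB3L1, at 2 and 1 counts in the 7 day libraries.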
